A study of Mus musculus with 6 samples.

Results

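The 10 genes described here encode subunits of the MLL3/4 coregulator complex and a LIM-domain cofactor. The question was whether MafA and the promoter mark H3K4me3 were found on these genes themselves in a beta cell line. The MLL3/4 complexes are histone methyltransferases that place methyl groups on lysine 4 of histone H3, mainly at enhancers. They are built around 1 of 2 catalytic subunits, Kmt2c (MLL3) or Kmt2d (MLL4). Subunits that include Ncoa6, Paxip1 and Kdm6a set them apart from other H3K4 methyltransferase complexes. A core of Wdr5, Ash2l, Rbbp5 and Dpy30 is shared by all complexes of this family. MafA is a basic leucine zipper activator of insulin and other beta cell genes, and it is known to work with Ncoa6-containing MLL3/4 complexes. Ldb1 bridges LIM-domain proteins such as Isl1 in islet cells. H3K4me3 marks the starts of active genes.

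The 10 genes were chosen by their role in the complex or beside it, and each peak lying in the gene or within 10 kb of either end was taken, at the RefSeq positions of GRCm38. They are 10 of 21887 protein-coding genes in that table. All libraries were CUT&RUN, in which an antibody directs cleavage of the chromatin around its target, from the mouse insulinoma line MIN6, a single line that carried no stated genetic change or treatment. There were 3 groups of 2 replicates: an antibody to MafA, an antibody to H3K4me3, and IgG as the negative control. Each library started from 500000 cells opened with 0.01% digitonin and was read as pairs of 150 bp. Nothing in the labels says that replicates were separate cultures, so the spread between them may be technical. The IgG libraries themselves were not used here, so the level of a control antibody at these regions was not analysed. Whether the deposited fold enrichments were computed against an IgG library is not stated in the sources used here, and this was not tested.

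The MafA lists held 33013 and 42747 peaks and the H3K4me3 lists 16020 and 16904. The number of fragments at a summit, recovered from the deposited values, had a median of 25 and 46 in MafA replicates 1 and 2, against 759 and 263 in H3K4me3 replicates 1 and 2. A region below is a place where peaks of both replicates of a target overlapped, and there were 25894 such regions for MafA and 15573 for H3K4me3. Its strength is the fold enrichment at the summit, the linear ratio of fragments to a modelled local background, given as the mean and SD of the 2 replicates. The labelled cell type was checked against its markers: H3K4me3 lay at a start of 8 of 9 beta cell marker genes (all but Ins1), 1 of 4 markers of other islet cells (Gcg, the glucagon gene) and 0 of 3 exocrine markers. MafA regions lay at 9 of 9, 3 of 4 and 1 of 3 of these genes.

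MafA was found at 7 of the 10 genes: Kmt2d, Ncoa6, Paxip1 and Kdm6a of the 5 listed MLL3/4-specific subunits, Wdr5 and Dpy30 of the 4 shared core subunits, and Ldb1. Kmt2c, Ash2l and Rbbp5 had no region. The same rule found a MafA region at 44.0% of all protein-coding genes, at 61.7% of those with H3K4me3 at a start, and at 66.5% of H3K4me3-marked genes whose length was within the range of these 10 (16621 to 227061 bp). The 7 of 10 is therefore near the share among marked genes of like length and is not a result particular to the complex. In 5 of the 10 the region lay inside the gene, against 31.7% of all genes and 54.9% of the marked genes of like length. In 4 of them, Kmt2d, Kdm6a, Dpy30 and Ldb1, it lay within 1 kb of an annotated start of the gene, against 20.4% of all and 33.9% of marked genes.

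**Figure D1:**
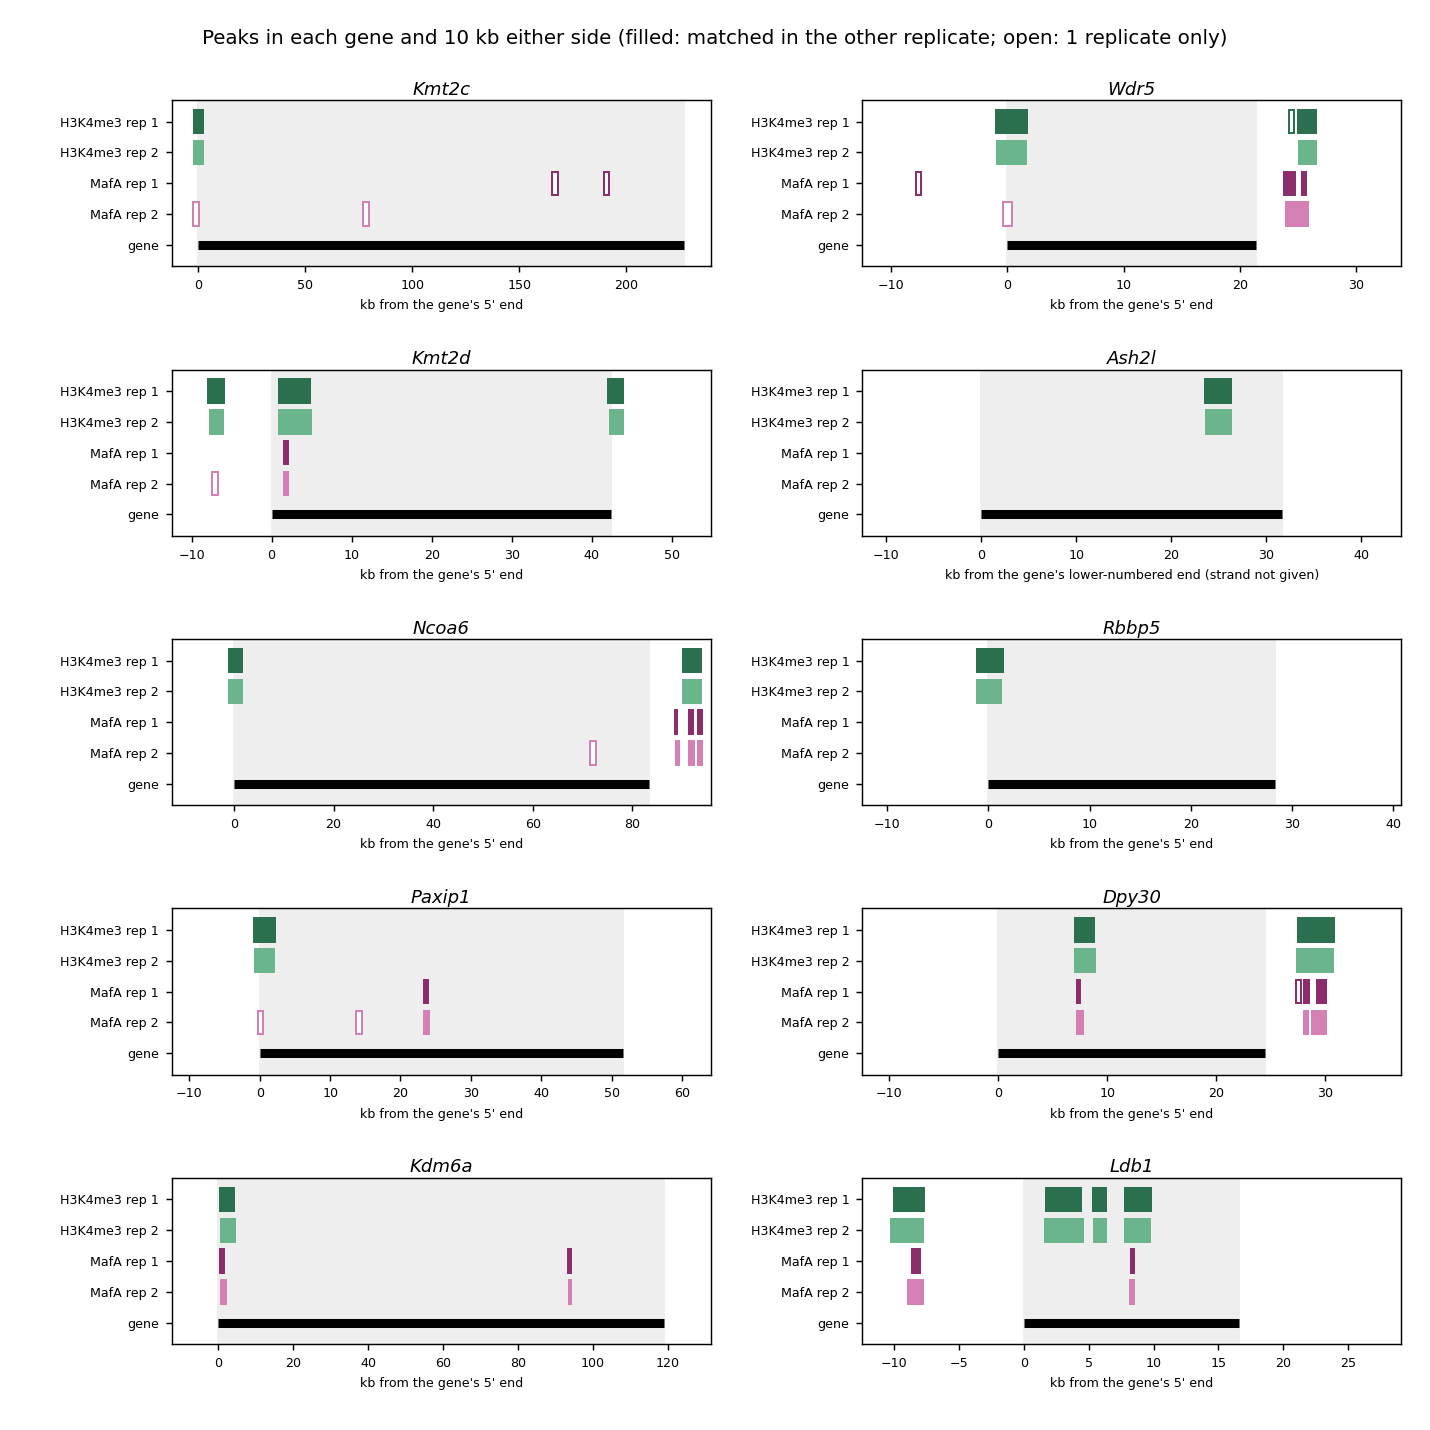
Peaks in the 10 genes, with the distance in kb from the 5′ end of each gene (for Ash2l, of its lower-numbered end) along the x axis and 1 row for each library; filled boxes are peaks matched in the other replicate, open boxes are peaks of 1 replicate only, and narrow boxes are widened so that they can be seen. MafA boxes are filled in both replicates at 7 genes, open only at Kmt2c and absent at Ash2l and Rbbp5, while H3K4me3 covers a start of 9 genes.

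The promoter sequences show the DNA before annotated starts and which promoters held MAF-type letters. MAF proteins recognise elements built from the half-site TGCTGA, which is printed as its reverse complement TCAGCA where it lies on the opposite strand, placed as a palindrome whose outer TGC and GCA stand 7 or 8 bases apart. The RefSeq table held 14 promoters for 9 of the genes (no entry for Ash2l), each cut here to the 250 bases before an annotated start in GRCm38.p6. Of these, 4 promoters of 3 genes (Dpy30, Kdm6a and Ldb1) lay under MafA peaks of both replicates, 3 under a peak of 1 replicate, and 7 under none. The same counts were not made over all promoters, so these describe the listed promoters only. Lying under a peak here means sharing at least 1 bp with it. The 5 that follow are written 5′ to 3′ on the strand of the gene, with the matched letters in capitals: the starts of Dpy30, Kdm6a and Ldb1 under MafA in both replicates, the start of Wdr5 under MafA in replicate 2, and the upstream start of Ldb1, which held a spaced match and no MafA peak.
Dpy30, chr17:74316434-74316683, minus strand: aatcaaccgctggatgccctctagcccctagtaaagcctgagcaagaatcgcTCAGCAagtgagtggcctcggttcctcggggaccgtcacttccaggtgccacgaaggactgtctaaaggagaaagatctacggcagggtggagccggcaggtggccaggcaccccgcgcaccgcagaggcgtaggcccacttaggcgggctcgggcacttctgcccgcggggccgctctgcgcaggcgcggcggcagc
Kdm6a, chrX:18162325-18162574, plus strand: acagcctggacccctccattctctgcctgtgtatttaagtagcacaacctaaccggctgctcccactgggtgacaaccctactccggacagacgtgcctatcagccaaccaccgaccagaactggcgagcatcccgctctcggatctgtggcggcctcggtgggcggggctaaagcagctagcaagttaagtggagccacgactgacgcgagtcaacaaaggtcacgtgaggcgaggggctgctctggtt
Ldb1 internal start, chr19:46039622-46039871, minus strand: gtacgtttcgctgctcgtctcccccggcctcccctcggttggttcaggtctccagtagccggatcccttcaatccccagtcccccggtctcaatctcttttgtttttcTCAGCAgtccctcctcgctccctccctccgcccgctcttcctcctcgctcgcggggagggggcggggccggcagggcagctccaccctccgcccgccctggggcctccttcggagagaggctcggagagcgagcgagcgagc
Ldb1 upstream start, chr19:46045312-46045561, minus strand: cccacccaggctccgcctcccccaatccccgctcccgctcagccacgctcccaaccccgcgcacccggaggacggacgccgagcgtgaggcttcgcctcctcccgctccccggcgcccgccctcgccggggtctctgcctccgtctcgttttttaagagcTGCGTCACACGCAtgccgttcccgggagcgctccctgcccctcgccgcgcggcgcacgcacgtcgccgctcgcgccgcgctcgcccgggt
Wdr5, chr2:27514897-27515146, plus strand: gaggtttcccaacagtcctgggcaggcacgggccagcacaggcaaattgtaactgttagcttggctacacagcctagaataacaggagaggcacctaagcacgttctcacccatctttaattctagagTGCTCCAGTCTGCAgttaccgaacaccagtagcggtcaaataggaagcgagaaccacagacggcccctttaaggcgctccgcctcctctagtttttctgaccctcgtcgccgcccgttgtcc

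The half-site stood in 3 of the 14 promoters, and all 3 were among the 4 under MafA in both replicates; they represent 2 places, since a pair of overlapping Dpy30 promoters shared 1 copy. Among all 32851 promoters of the same length, 16.1% held it. The share among all promoters under MafA peaks was not counted, so no link between the letters and the peaks can be read from these counts. In Dpy30 the letters lay at chr17:74316626-74316631, with their centre 0.5 bp from the MafA summit of replicate 1 and 30.5 bp from that of replicate 2. In Ldb1 they lay at chr19:46039758-46039763, 69.5 bp and 43.5 bp from the summits. The Kdm6a promoter held no copy, but both MafA summits, at chrX:18162258 and chrX:18162285, lay outside it. The replicate 1 peak ended at 18162354, so most of that promoter was not covered in replicate 1.

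The longer half-site TGCTGAC was in 0 of the 14 promoters, against 3.81% of all promoters. The TGC and GCA pair with 7 bases between, shown in capitals in the upstream Ldb1 promoter, was in 1 of 14 against 6.17%, and the pair with 8 bases, shown in Wdr5, was in 1 of 14 against 5.94%. The Wdr5 letters, at chr2:27515025-27515038, lay 98.5 bp from the replicate 2 summit. Base content differed between the shown promoters: the upstream Ldb1 promoter held 40 CpG and 76% G and C, and the Wdr5 promoter 12 CpG and 54.4%, against medians of 6 CpG and 52.4% over all promoters. These matches describe letters in a window and were not tested as binding sites.

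Among the subunits that distinguish the MLL3/4 complexes, both catalytic genes carried H3K4me3 at a start, and MafA was found in both replicates at Kmt2d alone of the pair. The Kmt2d region, at chr15:98871991-98872534, lay inside the gene span, 786 bp upstream of one annotated start, and within the H3K4me3 region of that start. MafA fold enrichment there was 3.64 in replicate 1 and 3.94 in replicate 2 (3.79 ± 0.21, SD, n = 2), with 91 and 194 fragments at the summit. The replicates gave closely similar values, and the region stood at percentile 13.8 of all MafA regions by fold enrichment, but at percentiles 91.5 and 90.8 by fragments. A further peak, of fold enrichment 2.67 with 142 fragments, was called in replicate 2 alone beside the start of the neighbouring gene Rhebl1.

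Kmt2c showed no place that both MafA libraries called. Replicate 1 had peaks of fold enrichment 3.55 and 4.03 deep in the gene, resting on 9 and 11 fragments. Replicate 2 had a peak of 6.31 with 34 fragments elsewhere in the gene, and a peak of 1.95 with 64 fragments 1040 bp upstream of its start. The latter lay 98 bp from a start of the long noncoding RNA gene 4831440E17Rik. None of these 4 places was called in the other replicate, so no SD can be given. Among all peaks, 18.8% of MafA replicate 1 and 39.2% of MafA replicate 2 had no partner in the other list.

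Ncoa6 encodes the subunit through which nuclear receptors and MafA are known to contact the complex. Its 3 MafA regions all lay past the 3′ end of the gene, and all 3 were nearest to a start of the neighbour Trp53inp2, an autophagy and transcription cofactor. The strongest, at chr2:155381526-155382522, had a fold enrichment of 5.95 and 5.49 (5.72 ± 0.32, SD, n = 2) with 170 and 352 fragments, the most of any MafA region at these genes. Its mean summit lay 114.5 bp from the Trp53inp2 start, and it stood at percentile 49.7 by fold enrichment and at 98.3 and 98.0 by fragments. The other two gave 4.61 and 3.87, and 3.54 and 2.89. Inside Ncoa6 only replicate 2 had a peak, of fold enrichment 3.59 with 21 fragments, and its own start had H3K4me3 but no MafA peak.

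Paxip1 encodes an adaptor with BRCT domains, also called PTIP. Its MafA region, at chr5:27767584-27768394, lay inside the gene, 23458 bp from the nearest annotated start and away from H3K4me3. Fold enrichment was 6.19 and 4.32 (5.25 ± 1.32, SD, n = 2) on 32 and 45 fragments. The replicate values were apart by more than at Kmt2d, and their counting intervals, 4.29 to 8.66 and 3.19 to 5.74, overlapped. At the start of Paxip1 replicate 2 alone had a peak, 36 bp from the start, with a fold enrichment of 2.92, 194 fragments and a −log10 q of 25.1. Replicate 2 alone also had a peak inside the gene, 13980 bp from the start, of fold enrichment 5.11 with 23 fragments.

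Kdm6a (UTX) removes methyl groups from lysine 27 of histone H3, a repressive mark, and is X-linked. It had a MafA region at its start and another far inside the gene, and they differed in kind. The start region, at chrX:18161302-18162847, was on H3K4me3 and had 3.15 and 3.14 (3.15 ± 0.01, SD, n = 2), with 42 and 87 fragments over a modelled background of 12.6 and 20. The inner region, at chrX:18254325-18254922, was off H3K4me3, 92032 bp from the nearest start, and had the highest mean of all 13 regions, 5.35 and 7.25 (6.30 ± 1.34, SD, n = 2). That value joined summits that lay 353 bp apart, and it rested on only 13 and 32 fragments over a background of 1.62 and 2.43. Its intervals, 3.03 to 8.88 and 5.05 to 10.1, were among the widest.

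Of the shared core, Wdr5, a histone-binding WD40 protein, had its MafA region past the 3′ end of the gene, at chr2:27538966-27541041, nearest to the long noncoding RNA gene Gm13421. Fold enrichment was 6.25 and 6.22 (6.23 ± 0.02, SD, n = 2) with 54 and 107 fragments. The region overlapped an H3K4me3 region, chr2:27540160-27541712, but the MafA summits that gave these values, at 27539705 and 27539779, lay outside that. A weaker replicate 1 peak of the same MafA region, of fold enrichment 3.50 with 28 fragments, had its summit at 27540598, inside the H3K4me3 region. Only a weak H3K4me3 peak of replicate 1 alone, of fold enrichment 2.67, lay over the stronger summits. At the Wdr5 start itself, the sequence shown above, replicate 2 had a peak of 5.02 with 130 fragments and a −log10 q of 34.7, centred 214 bp upstream, and replicate 1 had none. Replicate 1 alone had a peak of 4.47 with 12 fragments, 289 bp from a start of the neighbour Brd3. Peaks of replicate 2 as significant as those at the Wdr5 and Paxip1 starts seldom lacked a partner: of 13373 with a −log10 q of at least 20, 695 (5.20%) did. Both are named after their values were seen.

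Dpy30, the small subunit that binds Ash2l, had 3 MafA regions, all on H3K4me3. The one at its own start, at chr17:74316169-74316752, covered the half-site shown above and had a fold enrichment of 4.55 and 2.74 (3.64 ± 1.28, SD, n = 2), with 77 and 105 fragments. Its intervals, 3.60 to 5.67 and 2.24 to 3.31, did not overlap, and it was the only one of the 13 regions of which this was so. The other two lay past the 3′ end at the start of Memo1, with 1.97 and 2.69, and 2.86 and 3.16. The first of these stood at percentile 0.695 by fold enrichment, the lowest of the 13, and at 75.9 and 82.6 by fragments. Replicate 1 alone had a further peak, of fold enrichment 3.94 with 27 fragments, 774 bp from a Memo1 start.

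Ash2l and Rbbp5, whose proteins together stimulate the methyltransferase subunit, had no MafA peak in either library, in the gene or within 10 kb. Both carried H3K4me3: Ash2l with 22.7 and 22.8 (22.8 ± 0.13, SD, n = 2) and Rbbp5 with 17.4 and 17.6 (17.5 ± 0.19, SD, n = 2). The lists hold only peaks with a −log10 q of at least 2.0, so a weaker MafA signal at these genes would not be seen.

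Ldb1 had 2 MafA regions of like strength, both on H3K4me3. The region at its internal start, at chr19:46039665-46039931, had a fold enrichment of 4.73 and 5.33 (5.03 ± 0.43, SD, n = 2) with 75 and 166 fragments, and held the half-site shown above. The region upstream of the gene, at chr19:46055972-46057133, had 4.78 and 5.40 (5.09 ± 0.44, SD, n = 2) with 81 and 223 fragments, and its mean summit lay 259.5 bp from a start of the neighbour Pprc1. The upstream start of Ldb1, at the stronger H3K4me3 region, had no MafA peak.

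Across the 13 MafA regions, 6 lay in the genes and 7 outside them, and these 7 were also those nearest to a start of another gene. By fold enrichment the regions were low among MafA regions. The mean ran from 2.33 to 6.30 with a median of 4.24, against 5.75 over all MafA regions, and 11 of 13 were under that median, 7 of them under percentile 25. By fragments at the summit they were high: 11 of 13 in replicate 1 and 9 of 13 in replicate 2 were above the median of all MafA regions, with median percentiles of 75.9 and 72.8. A −log10 q of at least 20 was reached by 6 of the 13 in replicate 1, 5 in replicate 2 and 5 in both. Of all peaks, matched or not, 7917 of 33013 in replicate 1 and 13373 of 42747 in replicate 2 reached it. The strongest region of each gene had a median of 5.25, against 6.19 over all 9639 genes with a region and 6.33 over marked genes of like length. The 90th percentile of all MafA regions was 11.9, which 0 of the 7 genes reached with their strongest region and 15.4% of all genes with a region did. Replicates overlapped in their counting intervals at 12 of 13 regions, with 7 higher in replicate 1 and 6 in replicate 2. The share of all MafA regions with such overlap was not counted. These intervals are 95% Poisson intervals on the fragments with the background held fixed, and cover counting error only.

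**Figure D2:**
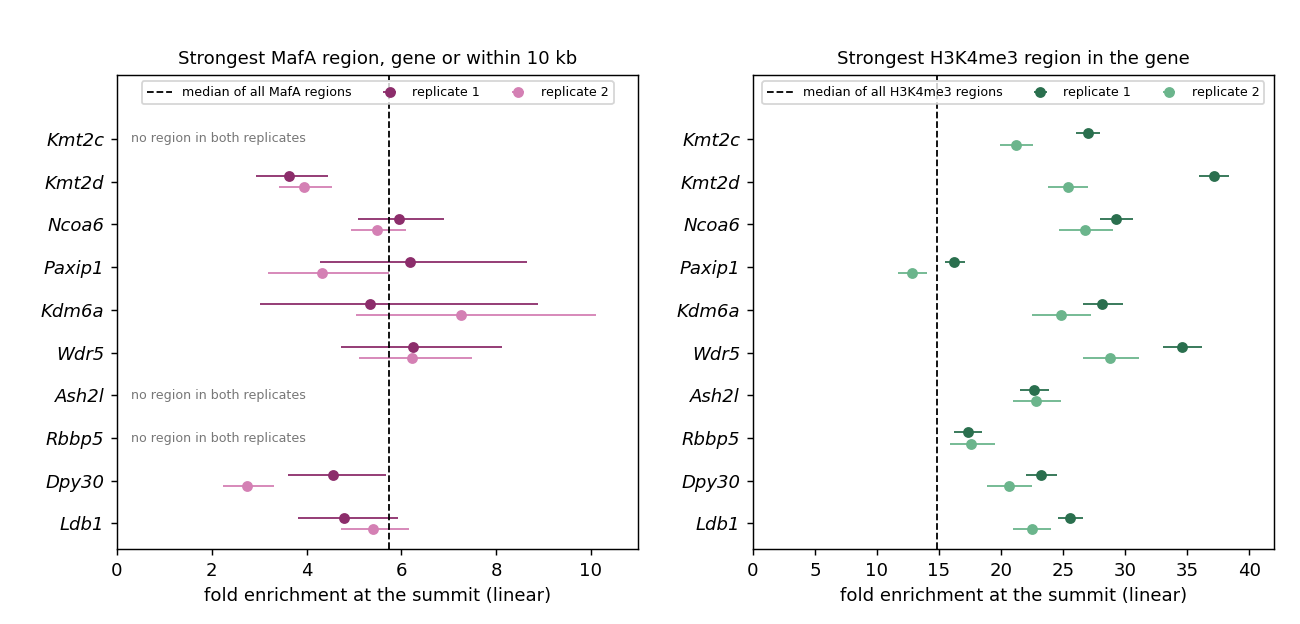
Fold enrichment at the summit (linear x axis) of the strongest MafA region in or near each gene, and of the strongest H3K4me3 region in each gene; points are the 2 replicates, bars are 95% counting intervals, and dashed lines are the medians of all regions, 5.75 and 14.9. MafA values lie near or below their line, from 3.64 to 6.30 as means, and 9 of the 10 H3K4me3 means lie above theirs.

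H3K4me3 was found at the starts of nearly all of these genes. It lay inside all 10, and inside 13108 of all 21887 protein-coding genes of any length. Within 1 kb of a start it lay at 9 of the 10, against 57.8% of all protein-coding genes, again of any length. The exception, Ash2l, has no strand or start in the promoter table, and its H3K4me3 region, at chr8:25839593-25842238, lay 5456 bp from the nearer end of the gene. The strongest in-gene region ran from 14.5 ± 2.43 at Paxip1 to 31.7 ± 4.08 at Wdr5 (SD, n = 2 each), against a median of 14.9 over all H3K4me3 regions. Kmt2d followed with 37.2 and 25.4 (31.3 ± 8.35), Ncoa6 with 29.3 and 26.8 (28.0 ± 1.78), Kdm6a with 28.2 and 24.8 (26.5 ± 2.38), and Kmt2c with 27.0 and 21.2 (24.1 ± 4.10). Of the 10, 9 exceeded the median and 4 (Wdr5, Kmt2d, Ncoa6 and Kdm6a) stood above the 90th percentile. Of 7501 protein-coding genes in the same range of length with H3K4me3 inside them, 67.9% had a strongest region above that median and 15.1% one above that percentile. The median of the strongest regions was 24.1 over the 10 genes and 18.2 over the 7501, and no test was made of this difference.

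In width, all 10 of these H3K4me3 regions were wider than the median region of 1837 bp, with a median of 2798.5 bp, and those of Kmt2c, Kmt2d and Kdm6a passed the 90th percentile of width at 4026, 3955 and 3896 bp. Among the same 7501 genes the strongest region passed these limits in 65.0% and 13.3%, with a median width of 2180 bp. Replicate 1 was higher at 8 of the 10, and at 5 the counting intervals of the replicates did not overlap. The share of all H3K4me3 regions without overlap was not counted, so the 5 describe these genes only. In the order of strength from Wdr5 and Kmt2d down to Ash2l and Dpy30, the replicate values of neighbours overlapped, while Rbbp5 lay below Dpy30, and Paxip1 below Rbbp5, with no overlap. Over all H3K4me3 regions replicate 1 was likewise higher, with a median of 15.2 against 14.3.

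MafA and H3K4me3 met at 6 of the 10 genes, every one with a MafA region other than Paxip1. The same was so of 28.7% of all protein-coding genes and 44.6% of marked genes. At Ncoa6 and Wdr5 they met only outside the gene, nearest to a start of Trp53inp2 and of Gm13421. In the gene body alone they met at 4 genes. Of the 13 MafA regions 10 (76.9%) overlapped H3K4me3, against 23.5% of all MafA regions and 36.3% of the 9840 at marked genes of like length. These 10 include regions nearest to starts of the neighbours Trp53inp2, Gm13421, Memo1 and Pprc1. Seen from the other side, 8 of the 18 H3K4me3 regions at the genes (44.4%) met MafA, against 37.4% of all. No test was made of these shares, since the regions share genes and libraries.

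The number of fragments and the fold enrichment ordered the regions differently. The 10 MafA regions on H3K4me3 had a median of 64.5 and 123 fragments in replicates 1 and 2, and the 3 away from it (in Paxip1, in Kdm6a and past Ncoa6) 29 and 45. The modelled background was higher on H3K4me3 too, with medians of 15.6 and 25.2 against 4.33 and 7. Fold enrichment was not higher there: its medians were 4.58 and 3.91 on H3K4me3, and 5.35 and 4.32 away from it. All MafA regions of the libraries showed the same order, with 54 and 120 fragments on H3K4me3 against 25 and 51 away from it, and fold enrichments of 4.24 and 4.54 against 5.84 and 6.40. The part of the local background in these fold enrichments was not tested.

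**Figure D3:**
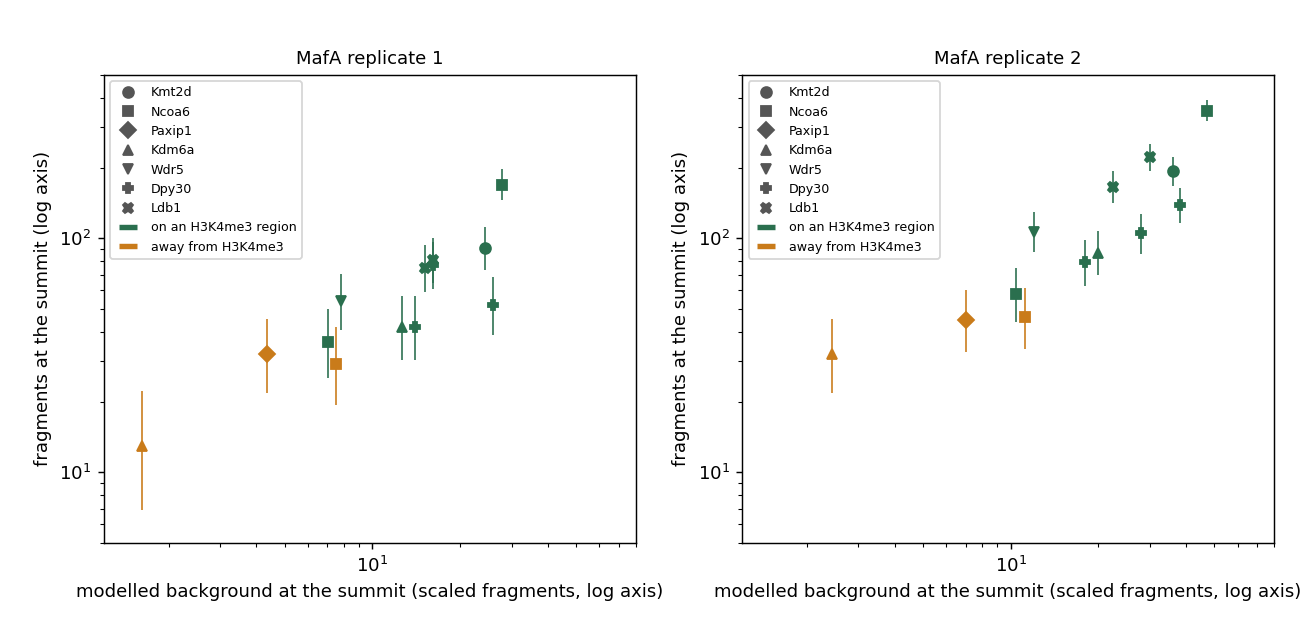
Fragments at the summit (log y axis) against the modelled background there (log x axis) for the 13 MafA regions in each replicate; the shape gives the gene, the colour gives overlap with H3K4me3, and bars are 95% counting intervals. The 3 regions away from H3K4me3 lie low on both axes, and the Ncoa6 region beside Trp53inp2 is highest with 170 and 352 fragments.

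Peaks of the targets differed in width and place at these genes, as they did over the whole lists, and 2 libraries each cannot give a small p. The median width of a peak was 477.5 and 561 bp in the MafA libraries (519 ± 59.0, SD, n = 2) and 2511 and 2589 bp in the H3K4me3 libraries (2550 ± 55.2). The MafA value was lower by 2031 bp, and the two-sided exact permutation test over libraries gave p = 0.333, the smallest this design allows. Over all peaks the medians were 556 and 651 bp for MafA and 1716 and 1674 bp for H3K4me3. Summits lay within 1 kb of an annotated start of any protein-coding gene for 10 of 18 and 10 of 20 MafA peaks, that is 55.6% (Wilson 95% interval 33.7% to 75.4%) and 50% (29.9% to 70.1%). For H3K4me3 it was 15 of 19 and 15 of 18, that is 78.9% (56.7% to 91.5%) and 83.3% (60.8% to 94.2%). Over all peaks, which are not confined to windows around genes, the shares were 13.6% and 16.5% for MafA and 72.0% and 68.8% for H3K4me3. The MafA share minus the H3K4me3 share was −28.4 percentage points (MafA 52.8 ± 3.93, H3K4me3 81.1 ± 3.10, SD, n = 2), again with an exact permutation p of 0.333. Both MafA libraries lay below both H3K4me3 libraries in each measure.

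Other genes of H3K4 methyltransferase complexes, and genes that work beside them, gave the setting. Of 13 other genes of H3K4 methyltransferase complexes, all had H3K4me3 at a start, 9 had a MafA region and 5 had one within 1 kb of a start, with a median strongest fold enrichment of 5.44. The 3 highest were the catalytic subunit Setd1b with 9.27 and 10.9 (10.1 ± 1.16, SD, n = 2), Bod1 with 11.1 and 7.99 (9.56 ± 2.22) and Hcfc2 with 6.99 and 11.1 (9.02 ± 2.88). The Setd1b region lay outside that gene, within 10 kb. Menin (Men1), Wdr82, Cxxc1 and Pagr1a, an MLL3/4 subunit that was not among the 10 genes, had no MafA region.

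Of 7 histone demethylases and acetyltransferases, 4 had a MafA region, led by the acetyltransferase Crebbp (8.54 ± 2.05, SD, n = 2), the H3K4 demethylase Kdm5a (7.71 ± 1.07) and the H3K27 demethylase Kdm6b (6.57 ± 0.75), a relative of Kdm6a. The Kdm5a region lay outside that gene. Of 6 nuclear receptor coactivators all had one, with a median of 9.59, led by the p160 proteins Ncoa2 (14.4 ± 0.75), Ncoa1 (11.5 ± 0.35) and Ncoa3 (9.89 ± 0.39). Each of these 3 was above the 5.72 beside Ncoa6, which is of another family. Of 7 partners of Ldb1, 6 had a MafA region, led by Ssbp2 (12.3 ± 2.05), the related cofactor Ldb2 (8.92 ± 3.99) and the islet LIM-homeodomain factor Isl1 (8.20 ± 0.03).

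For the 9 beta cell markers the median strongest fold enrichment was 16.4, and 6 of them were at or above the 90th percentile of all regions, as were 1 of the nuclear receptor coactivators and 1 of the Ldb1 partners. So was 1 of the 4 markers of other islet cells, Gcg, with 21.0 and 11.1, and the median of that list was 9.14. In the remaining lists 0 genes reached it. The highest beta cell markers were Ins1 (36.7 ± 10.3, SD, n = 2), Slc2a2, the glucose transporter gene (22.6 ± 0.10), and Pdx1 (21.6 ± 4.84). The Ins1 and Slc2a2 regions lay outside those genes. Every replicate value of the 3 highest exceeded every MafA value at the 10 genes. The lowest beta cell markers, Nkx6-1 (6.08) and Mafa (5.15), lay within the range of the strongest regions of the MLL3/4 genes and Ldb1, 3.64 to 6.30. The lists are short and were chosen with earlier results known, so their counts are a description.

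**Figure D4:**
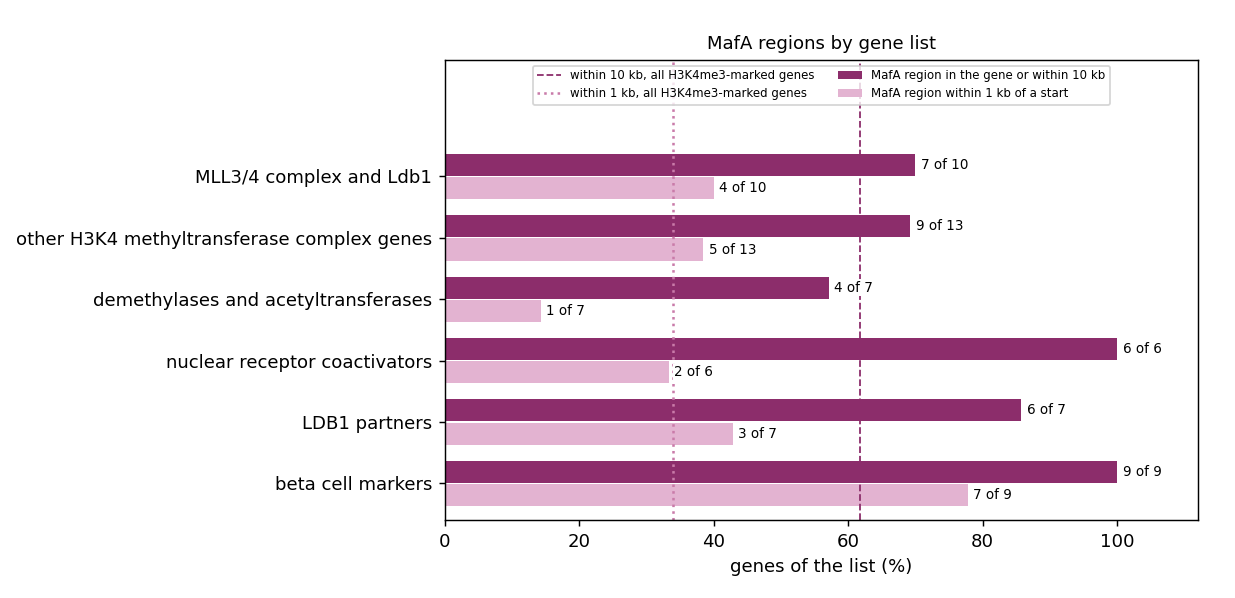
Share of each gene list (x axis, percent) with a MafA region in the gene or within 10 kb (dark bars) and within 1 kb of a start (light bars), with counts beside the bars; the dashed and dotted lines are the shares among all H3K4me3-marked genes, 61.7% and 33.9%. The MLL3/4 genes, at 7 of 10 and 4 of 10, lie close to the lines; the beta cell markers (9 of 9) and nuclear receptor coactivators (6 of 6) reach the full dark bar, and the beta cell markers (7 of 9) have the longest light bar.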

How the data were processed

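CUT&RUN was done on MIN6 cells with MafA, H3K4me3 or IgG antibody, in 2 replicates each. Groups came from the sample titles. The 4 peak lists deposited for MafA and H3K4me3 were used, 1 per library; MACS2 and the builds GRCm38 and mm10 are named in the submitters' processing notes. The aligner, duplicate handling and control library are not given in the sources used here. Fold enrichment, as deposited, is pileup over modelled background at the summit, a linear ratio. The deposited −log10 p-values and q-values are those of the summit, and the lowest −log10 q was 2.0. The deposited score was not used. The deposited summit offset gave each summit position.

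Peaks of the replicates sharing at least 1 bp were joined into regions, valued by the strongest peak of each list. Fragments were recovered from the fold enrichment and p-value with a pseudocount of 1 and 1 scaling factor per library (0.415, 0.997, 1 and 0.746 for H3K4me3 replicates 1 and 2 and MafA replicates 1 and 2), within a relative tolerance of 0.0001, at 100% of peaks. The routines were tested on simulated data. Gene positions and promoters were from RefSeq tables of GRCm38.p6; starts were gene 5′ ends and annotated promoter starts, and either gene end where no strand was given. No exon annotation was used, so exonic and intronic positions are not separated. Calculations ran in Python 3.11.15 with pandas 2.3.3, numpy 2.4.6 and scipy 1.17.1, and plots were drawn with matplotlib 3.10.9.

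All 10 genes were named; other lists were given as counts with the 3 genes of highest mean MafA fold enrichment. The genes and lists were chosen with earlier results of these data known. Other settings tried were 50% reciprocal overlap, a minimum −log10 q of 5, lists cut to 1 length after ranking by fold enrichment or by fragments, other distances, recovered fragments, a replicate block and leaving out each replicate.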

Additional observations from a re-analysis of the deposited data

How the results depend on the processing

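Of 65 alternative values of the main results, 54 kept their direction and stayed within the limits set for a change. With equal numbers of the peaks strongest by fold enrichment (16020 per list), MafA regions fell from 13 to 2, the genes with one from 7 to 2, and those with one on H3K4me3 from 6 to 1. With as many peaks ranked by fragments, a setting chosen after seeing the data, these were 9, 6 and 6. The 13 regions became 10 with 50% reciprocal overlap, 6 in the gene body alone and 23 with 50 kb on either side. They became 18 to 20 peaks when either MafA replicate was left out. The median strongest MafA fold enrichment of 5.25 became 5.17 with 50% reciprocal overlap, 5.14 with 5 kb, 5.07 to 5.45 without either MafA replicate, and 91 when fragments replaced it. Wdr5 lost its only region under 50% reciprocal overlap, and Ncoa6 lost all of its regions with 5 kb. Under 50% reciprocal overlap Dpy30 also lost the region at its own start, which covered the half-site. Its strongest value fell from 3.64 to 3.01, that of a region at the start of Memo1. The labels do not say that replicate numbers pair libraries; with a replicate block the differences stayed at −2031 bp and −28.4 points, with an exact p of 0.5, the smallest possible. The difference in the share near a start was −18.1 points with 2 kb and −68.6 with equal numbers of peaks. MafA replicate 2 had 2.07 times the fragments of replicate 1 at these regions, and the part of this in the peaks called in replicate 2 alone was not tested.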
